A study of Mus musculus with 4 samples.

Results

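The pyruvate dehydrogenase control genes are 10 genes that decide how much pyruvate enters the mitochondrion and how much of the complex that oxidises it is active. They were taken by gene symbol from the 32285 genes counted in the deposited tables, and all 10 were found, each under a single identifier. The 4 pyruvate dehydrogenase kinases are Pdk1, Pdk2, Pdk3 and Pdk4, the 2 phosphatase catalytic subunits are Pdp1 and Pdp2, the 2 subunits of the E1 enzyme are Pdha1 and Pdhb, and the 2 subunits of the mitochondrial pyruvate carrier are Mpc1 and Mpc2.

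The carrier brings pyruvate across the inner mitochondrial membrane, and E1, a tetramer of alpha and beta chains, starts its conversion to acetyl-CoA. Kinases phosphorylate the alpha chain and switch the complex off, phosphatases take the phosphate away and switch it on. In heart muscle this switch sets the balance between glucose and fatty acid oxidation, and Pdk4 is known as the kinase whose transcript follows fasting, fatty acids and glucocorticoids.

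The data are 4 droplet libraries (10× Genomics 3′ chemistry) of left ventricle from male C57BL/6J mice, with no genetic change in any group. The ages were 3 to 5 months in the young groups and 24 to 26 months in the aged groups. The I/R groups had surgery on the left anterior descending artery for 45 min of ischemia, followed by 24 h of reperfusion. The sham groups are sham operations in the paper and sham conditions in the sample titles, though the labels elsewhere name healthy unaltered tissue. There is 1 library per condition, the number of mice behind each is not given in the sources used here, and the labels name nuclear RNA as the molecule where the paper speaks of single cells.

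Unique molecular identifiers (UMIs, 1 per captured RNA molecule) numbered 25836175 for young sham, 39673199 for young I/R, 41356670 for aged sham and 66767829 for aged I/R, the order of libraries kept throughout, in 91124 to 102883 barcodes each, with medians of 244 to 675 UMIs per barcode. Between 2366 and 2843 barcodes were shared by any 2 libraries. Markers of all 4 labelled cell types (cardiomyocyte, endothelial, fibroblast, macrophage) were present, and no gene of these marker lists was at 0 in any library. Because no condition has a second library, no test between conditions was possible, and intervals are 95% limits for counting error only: exact Poisson for a level, exact conditional binomial for a ratio of 2 libraries, and normal on the log scale for a ratio of sums or a difference between ages. A difference between 2 libraries cannot be told apart from differences between animals or preparations, and in summed RNA fewer cells of a type and less RNA per cell cannot be told apart.

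Levels are given as CPM, where 1% of the UMIs of a library equals 10000, and ratios as log2 of the CPM ratio. The I/R response is that ratio for I/R over the sham library of the same age. The median log2 ratio over all genes with at least 20 UMIs in the 2 libraries was -0.51 for the young I/R response, 0.09 for the aged I/R response, -0.14 for aged over young sham and 0.47 for aged over young I/R, so values relative to this median are given beside the CPM ratios. A gene is called past the fold when it is at least 1.5-fold higher or lower both as CPM ratio and relative to this median.

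Sequence at the start of Pdk4 and of Pdk2 is shown because these kinases were, as the values below give, the most variable member and the most abundant kinase of 3 of the 4 libraries. Both stretches run from 250 bases before to 50 bases after an annotated start in RefSeq (GRCm38.p6), for Pdk2 the one listed first, at chr6:5496229-5496528 and chr11:95041322-95041621, both on the minus strand and written 5′ to 3′ along the gene, with matches to CCAAT in capitals (read as ATTGG where the match is on the other strand).
Pdk4: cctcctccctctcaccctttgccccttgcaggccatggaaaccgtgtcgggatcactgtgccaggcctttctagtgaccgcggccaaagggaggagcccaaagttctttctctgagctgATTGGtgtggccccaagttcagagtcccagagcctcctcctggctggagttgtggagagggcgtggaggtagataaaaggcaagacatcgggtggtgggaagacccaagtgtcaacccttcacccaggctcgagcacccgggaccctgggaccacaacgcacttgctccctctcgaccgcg
Pdk2: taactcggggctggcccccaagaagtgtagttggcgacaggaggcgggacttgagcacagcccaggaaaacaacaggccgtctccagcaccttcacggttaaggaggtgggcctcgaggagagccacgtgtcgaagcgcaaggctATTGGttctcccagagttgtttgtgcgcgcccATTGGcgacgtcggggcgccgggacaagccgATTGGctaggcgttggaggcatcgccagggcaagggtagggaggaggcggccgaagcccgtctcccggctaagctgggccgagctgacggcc

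The Pdk4 window held 1 CCAAT match and the Pdk2 window 3, all on the reverse strand. Of the 9 members with a RefSeq window (Pdp1 has none in the table), 7 held CCAAT on either strand in the window listed first, against 37.4% of all 32851 windows of this length. Pdk1, Pdk2 and Mpc1 have a further window, not counted here, and none of these held CCAAT. The 37.4% counts every window, further ones included, so the shares are not on like terms. Neither printed window held AGGTCA (nuclear receptor recognition hexamer, in 16.3% of windows), AGAACA (part of the glucocorticoid receptor element, 19.0%), GTAAACA (forkhead O site, 3.65%) or TATAAA (13.6%), searched on both strands. These letters do not overlap one another in either window, and a match or its absence in so short a stretch says nothing of whether a factor binds.

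The kinases came first, and among them Pdk4 stood apart. Pdk4 (ENSMUSG00000019577) lies on the minus strand of chromosome 6 from 5483351 to 5496309 in GRCm38 (GENCODE M21). The young sham library held it at 76.3 CPM (73.0 to 79.8), young I/R at 533 CPM (525 to 539.8), aged sham at 39.1 CPM (37.2 to 41.1) and aged I/R at 35.2 CPM (33.8 to 36.7), from 1972, 21128, 1618 and 2351 UMIs. The young I/R library was far above the other 3, and both aged libraries were below both young ones. Young I/R was also the library with the most Gm42418 (19.4% of UMIs against 11.5 to 14.0% in the others) and the least Malat1 (2.22% against 2.88 to 7.34%). Mitochondrial RNA took 10.0%, 14.1%, 15.6% and 9.98% of UMIs. With all these genes left out of the totals the young I/R response of Pdk4, its log2 CPM ratio of I/R over sham, was 2.95, and any other part of RNA quality was not tested. Ranked by UMIs among all genes of its library, Pdk4 stood 172nd with young I/R, 1645th with young sham, 3119th with aged sham and 3719th with aged I/R.

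Young I/R exceeded young sham in Pdk4 by a log2 ratio of 2.80 (2.74 to 2.87), 6.98-fold, or 3.31 relative to the median of all genes, which put it 82nd of 15465 genes. The aged I/R response was -0.15 (-0.24 to -0.06), a decrease outside counting error but not past the fold. The age difference, the aged I/R response minus the young one, was -2.95 (-3.07 to -2.84) for Pdk4, the 40th lowest of 16218 genes. Aged sham was below young sham by a log2 ratio of -0.96 (-1.06 to -0.87), and aged I/R below young I/R by -3.92 (-3.98 to -3.86), the lowest ratio of all 16491 genes in that comparison. All these directions were the same under 7 of 7 settings of scaling and barcode choice. For the cells it named cardiomyocytes, the paper reports Pdk4 as higher in aged than in young sham and as raised by I/R in aged mice. Both are the other way from these sums over all barcodes, and the reason was not tested. The paper calls the RNA difference between its sham groups modest. For protein it reports no significant difference between aged and young sham, and a rise with I/R in aged hearts that was not significant. The paper also reports Pdk4 as raised by I/R in young mice and as higher in young than in aged I/R. It gives these directions for RNA in those cells and for protein, and they are the same as in the sums here.

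**Figure D1:**
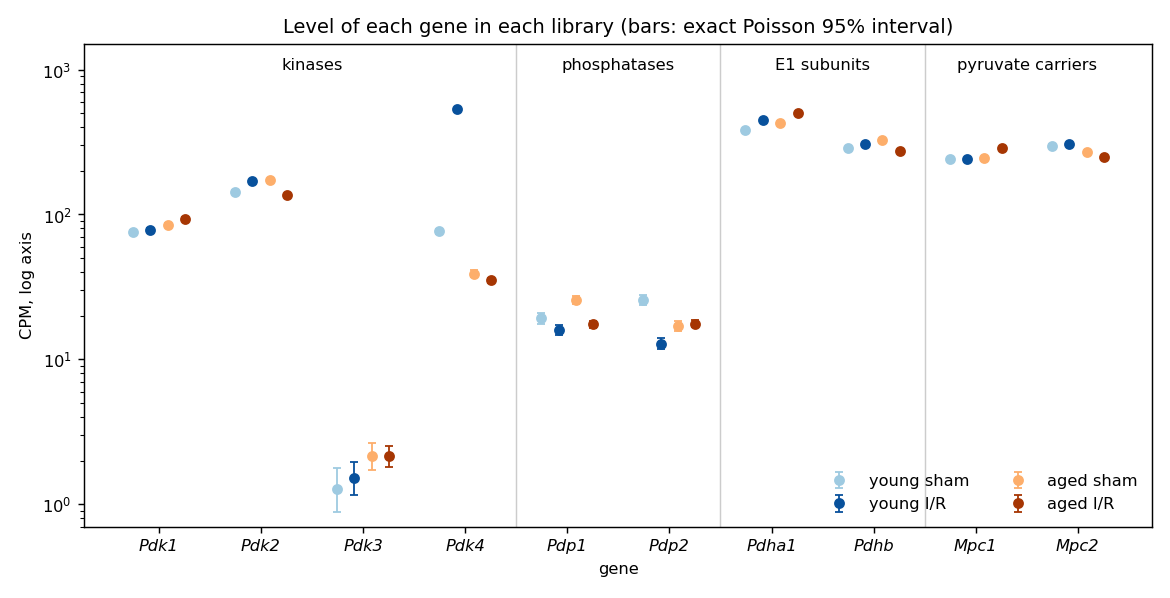
Level (CPM, log axis) of each of the 10 genes by library and role, with exact Poisson 95% intervals that are mostly smaller than the points. Pdk4 spans 35.2 to 533 CPM, while the E1 and carrier genes stay between 240.2 and 501 CPM in every library.

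Pdk2, the kinase found in most tissues, had a young sham level of 143 CPM (138 to 147), a young I/R level of 169 (165 to 173), an aged sham level of 172 (168 to 176) and an aged I/R level of 136 (133 to 138). Young I/R and aged sham did not differ beyond counting error, and aged I/R was the lowest. Its I/R response was 0.25 (0.19 to 0.31) in young and -0.34 (-0.39 to -0.30) in aged mice, with an age difference of -0.59 (-0.66 to -0.52), or -1.20 relative to the median of all genes. Relative to that median the responses were 0.76 in young and -0.43 in aged mice. Pdk2 (chromosome 11, 95026258 to 95041354) overlaps the antisense gene Gm11513, which had at most 2 UMIs in any library, and the use of strand in the counting is not stated.

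Pdk1, a kinase known as a target of hypoxia-inducible factor, had 75.1, 78.0, 84.9 and 93.2 CPM. The 2 young libraries did not differ beyond counting error, and the levels in the aged libraries were higher, with a log2 ratio of aged over young sham of 0.18 (0.10 to 0.26). For aged against young I/R it was 0.26 (0.20 to 0.32), which turns to -0.21 relative to the median of all genes. The young I/R library held 6.83 Pdk4 UMIs for each Pdk1 UMI, against 1.02 (young sham), 0.461 (aged sham) and 0.378 (aged I/R). Pdk1 lies on chromosome 2 from 71873224 to 71903858.

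Pdk3 (chromosome X, 93764607 to 93832201), the kinase with the most restricted tissue pattern, was sparse, with 33, 60, 89 and 144 UMIs, or 1.28, 1.51, 2.15 and 2.16 CPM. Within an age the 2 libraries did not differ beyond counting error. Aged sham was above young sham by a log2 ratio of 0.75 (0.16 to 1.38), past the fold but with a wide interval.

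The kinases together summed to 295 CPM (289 to 302) for young sham, 781 (773 to 790.1) for young I/R, 298 (293 to 303) for aged sham and 266 (262 to 270.2) for aged I/R. Without Pdk4 the same sums were 219, 249, 259 and 231 CPM. Pdk4 made up 25.8% of the kinase UMIs of young sham (exact binomial interval 24.9 to 26.8), 68.2% of those of young I/R (67.6 to 68.7), 13.1% of those of aged sham (12.5 to 13.7) and 13.2% of those of aged I/R (12.7 to 13.7). Its share did not differ beyond counting error between the 2 aged libraries, where Pdk2 held most of the kinase UMIs, 57.7% and 50.9%. In young mice Pdk2 went from 48.3% of them in sham to 21.7% in I/R.

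**Figure D2:**
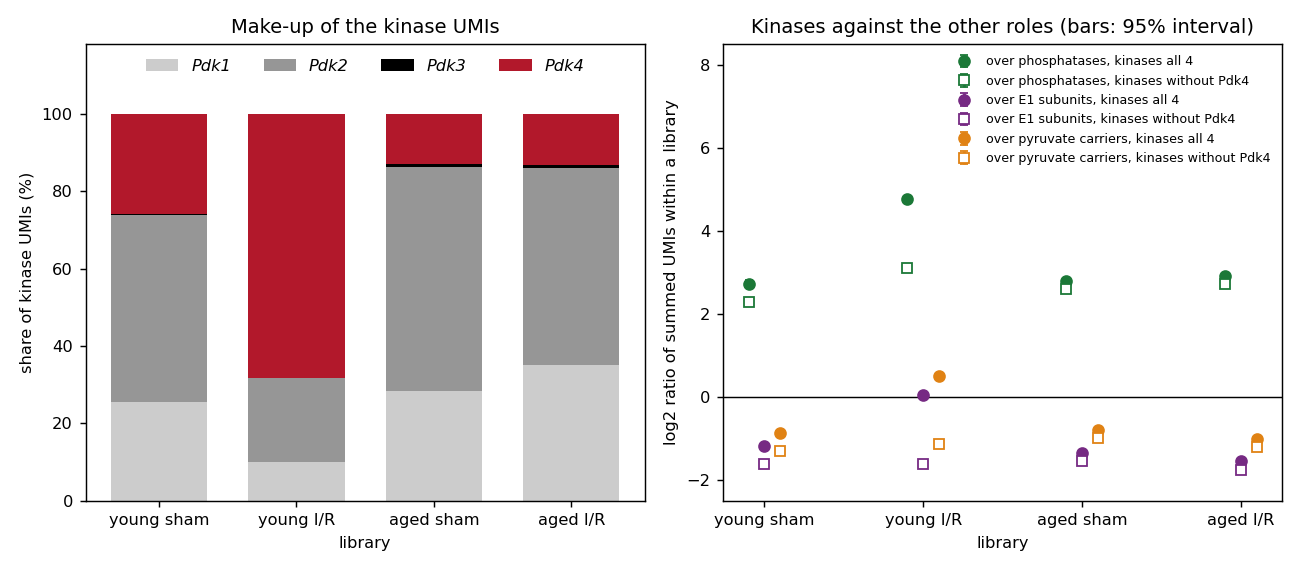
Left, the share of kinase UMIs (%) taken by each kinase in each library. Right, the log2 ratio of summed kinase UMIs over phosphatase, E1 and carrier UMIs within each library, with all 4 kinases (filled) and without Pdk4 (open), with 95% counting intervals. Pdk4 fills 68.2% of the young I/R bar and at most 25.8% of any other, and the filled points lie highest in young I/R.

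The phosphatases were the scarcest role, with sums of 44.9, 28.8, 42.7 and 35.1 CPM. Pdp2, the subunit known from starvation and insulin studies, had a young sham level of 25.6 CPM (23.7 to 27.6), a young I/R level of 12.8 (11.7 to 14.0), an aged sham level of 17.0 (15.8 to 18.4) and an aged I/R level of 17.6 (16.6 to 18.7). The young sham library was the highest and young I/R the lowest, with the 2 aged libraries between them and not different beyond counting error. Its young I/R response was -0.999 (-1.17 to -0.83), and -0.49 relative to the median of all genes, so it was not called past the fold. The aged response was 0.048 (-0.09 to 0.19), and aged sham lay below young sham by -0.59 (-0.74 to -0.43). The age difference of Pdp2 was 1.05 (0.83 to 1.26), or 0.44 relative to the median of all genes, and so not past the fold. Pdp2 is on chromosome 8 from 104591451 to 104599026.

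Pdp1 (chromosome 4, 11958184 to 11966452), the calcium-sensitive subunit of muscle, had a young sham level of 19.3 CPM (17.6 to 21.045), a young I/R level of 16.0 (14.8 to 17.3), an aged sham level of 25.7 (24.1 to 27.2) and an aged I/R level of 17.5 (16.5 to 18.5). Aged sham was the highest, and aged I/R did not differ beyond counting error from either young library. The I/R response was -0.55 (-0.68 to -0.43) in aged mice, or -0.64 relative to the median of all genes. In young mice it was -0.27 (-0.44 to -0.10), which turns to 0.24 relative to that median. There were 0.753 Pdp1 UMIs for each Pdp2 UMI with young sham, 1.25 with young I/R, 1.505 with aged sham and 0.991 with aged I/R, a ratio that needs no scaling between libraries. It changed with I/R by a log2 difference of 0.73 (0.49 to 0.97) in young mice and of -0.60 (-0.78 to -0.42) in aged mice.

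The E1 subunits were the most abundant role in 3 of the 4 libraries, with sums of 666, 756, 756 and 776 CPM. Pdha1, the alpha chain that carries the phosphorylation sites, had 380.2, 448, 429 and 501 CPM, and its levels in the 4 libraries all differed beyond counting error. Its I/R response was 0.24 (0.20 to 0.27) in young and 0.22 (0.20 to 0.25) in aged mice, and the difference between ages, -0.013 (-0.06 to 0.03), lay within counting error. Relative to the median of all genes that difference was -0.62. Pdha1 (chromosome X, 160122209 to 160138413) overlaps Map3k15 on the opposite strand, which had at most 145 UMIs against 33434 of Pdha1 in the same library.

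Pdhb, the beta chain, had 286, 308, 327 and 275 CPM, and lies on chromosome 14 from 8165996 to 8173025. Its I/R response was 0.11 (0.06 to 0.15) in young and -0.25 (-0.28 to -0.21) in aged mice, or 0.62 and -0.33 relative to the median of all genes. The 2 chains, which the enzyme needs in equal number, were counted at 1.33 Pdha1 UMIs for each Pdhb UMI with young sham, 1.45 with young I/R, 1.31 with aged sham and 1.82 with aged I/R. Capture differs between transcripts, so only the change is comparable: the ratio of the chains was higher in aged I/R than in aged sham by a log2 difference of 0.47 (0.43 to 0.51), and by 0.13 (0.07 to 0.18) in young mice.

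In CPM the carriers hardly differed between the young libraries, while relative to the median of all genes their young I/R responses were 0.51 for Mpc1 and 0.55 for Mpc2. Mpc1 had 240.2 CPM in both young libraries (234 to 246 and 235 to 245), 246 (241 to 251) in aged sham and 287 (283 to 292) in aged I/R, the only library that stood off. Mpc2 had 299, 307, 269.5 and 249 CPM, highest in the 2 young libraries, which did not differ beyond counting error, and lowest in aged I/R. The log2 ratio of aged I/R over aged sham was 0.22 (0.19 to 0.26) for Mpc1 and -0.11 (-0.15 to -0.08) for Mpc2, while aged stood against young I/R at 0.26 (0.22 to 0.29) for Mpc1, with -0.21 relative to the median of all genes, and -0.30 (-0.33 to -0.27) for Mpc2. The carrier works as a heterodimer, and Mpc1 UMIs per Mpc2 UMI numbered 0.804 for young sham, 0.782 for young I/R, 0.913 for aged sham and 1.15 for aged I/R. Aged I/R was higher than aged sham in this ratio by a log2 difference of 0.34 (0.29 to 0.39), and the young libraries did not differ beyond counting error (-0.040, -0.10 to 0.02). Mpc1 (chromosome 17, 8282904 to 8297661) overlaps 4930506C21Rik on the opposite strand, with 32 to 458 UMIs in a library, and Mpc2 lies on chromosome 1 from 165460637 to 165481214.

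Across the members, 1 of 10 (Pdk4) was past the fold above young sham in young I/R, where 6.36% of 15465 genes were, and 0 of 10 were past it below, where 23.5% of genes were. In aged I/R over aged sham 0 of 10 were past the fold in either direction, against 13.6% of 16761 genes higher and 9.71% lower. Between sham libraries, aged over young, 1 of 10 was higher (Pdk3, background 8.99% of 15875 genes) and 1 of 10 lower (Pdk4, background 13.8%). Between I/R libraries 0 of 10 were higher in aged, where 19.5% of 16491 genes were, and 1 of 10 was lower (Pdk4), where 4.38% of genes were. For the age difference 2 of 10 were past the fold below 0 (Pdk4 and Pdk2, background 10.2% of 16218 genes) and 0 of 10 above it (background 28.2%). Apart from Pdk4, then, the count of members was near or below the background in each comparison.

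The median log2 ratio of the 10 members was 0.080 in young I/R over young sham, beside -0.51 for all genes, with 9 of 10 members above the latter (Pdp2 below). In aged I/R over aged sham it was -0.055, beside 0.09 for all genes, with 3 of 10 above. For aged over young the members' median was 0.18 in sham, with 7 of 10 higher than the median over all genes, and 0.14 in I/R, with 1 of 10 (Pdk3) above it.

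**Figure D3:**
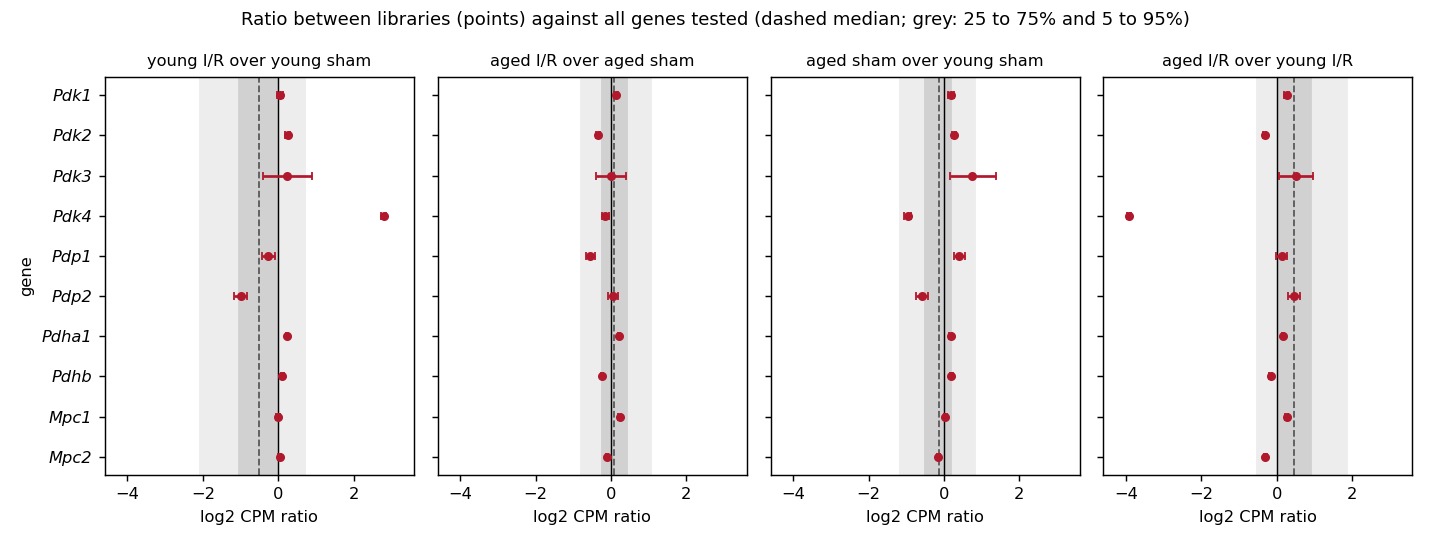
Log2 CPM ratio of each gene in the 4 comparisons (points, 95% counting intervals) over the spread of all genes tested (dashed line, median; dark grey, 25 to 75%; light grey, 5 to 95%). Pdk4 leaves the light band in young I/R over young sham (2.80) and in aged over young I/R (-3.92), and the other 9 genes lie within it in both.

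Setting kinases against the other roles within a library removes the scaling. Kinase UMIs were 6.58 times the phosphatase UMIs for young sham, 27.1 times for young I/R, 6.98 times for aged sham and 7.59 times for aged I/R. Young I/R was far above the rest, and aged I/R was slightly above aged sham. The log2 change with I/R was 2.04 (1.92 to 2.17) in young mice and 0.12 (0.02 to 0.22) in aged mice, and the 2 sham libraries did not differ beyond counting error (0.084, -0.03 to 0.20). Without Pdk4 the young change was 0.82 (0.70 to 0.95) and the aged change 0.12. Between young sham and young I/R the phosphatase sum fell from 44.9 to 28.8 CPM, while the kinases without Pdk4 went from 219 to 249 CPM.

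Over the E1 subunits, the log2 ratio of kinase UMIs was -1.17 for young sham, 0.048 for young I/R, -1.34 for aged sham and -1.54 for aged I/R. Kinase UMIs thus outnumbered E1 UMIs in young I/R only, with a change of 1.22 (1.18 to 1.27) from young sham, or 0.0022 when Pdk4 was left out of the sum. In aged mice the change was -0.20 (-0.24 to -0.16). Over the carriers the change with I/R was 1.38 (1.33 to 1.43) in young mice, 0.16 without Pdk4, and -0.22 (-0.26 to -0.18) in aged mice.

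Pdk4 was spread thinly over the barcodes. At least 1 Pdk4 UMI was found in 2.11%, 18.4%, 1.58% and 2.54% of the barcodes, with exact binomial intervals of 2.02 to 2.20%, 18.1 to 18.6%, 1.51 to 1.66% and 2.43 to 2.64%. With every barcode reduced to 200 UMIs, and 66286, 98275, 95918 and 91124 barcodes deep enough for that, the shares were 1.54%, 10.1%, 0.779% and 0.713%, in the order of the CPM values. Red cells should lack Pdk4, and of barcodes with at least 10% of their UMIs from 5 erythroid genes, a cut chosen after the data were seen, 8 of 417 in young sham (1.92%) and 29 of 200 in young I/R (14.5%) had a Pdk4 UMI, with median depths of 288 and 467 UMIs beside 244 and 374 in all barcodes. The aged libraries had 48 and 25 such barcodes, too few for a share. In CPM Pdk4 in those of young I/R came to 309.7 (209 to 442), below the 533 of the whole library. Erythroid genes took only 21.1% (young sham) and 19.5% (young I/R) of the UMIs of these barcodes, so they are not shown to be red cells. At a cut of at least 3 erythroid UMIs the share with Pdk4 in young I/R was 20.2%, beside 18.3% in the rest. For young sham it was 2.11% in both. These barcodes were deeper, with medians of 443 beside 372 UMIs in young I/R and 303 beside 243 in young sham. Their Pdk4 level was 497 CPM (459 to 537) beside 534 in young I/R, and 62.3 (44.1 to 85.5) beside 76.7 in young sham. Barcodes with a Pdk4 UMI held less erythroid RNA than the others in young sham, young I/R and aged sham. The log2 ratios were -0.076 (-0.15 to -0.0027), -0.12 (-0.14 to -0.091) and -0.22 (-0.31 to -0.13), and -0.047 (-0.11 to 0.019) in aged I/R. How far background adds to such shares was not tested, and a share of barcodes with a UMI is not read as a share of cells that express Pdk4.

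Pdk4 was also followed across barcodes ranked by cardiomyocyte marker RNA. Barcodes with at least 200 detected genes were ranked by their share of UMIs from 18 cardiomyocyte markers and summed in 5 bins of equal barcode number, which are ranges of a score and not cell types: between 5848 and 29115 barcodes of a library lay within 1 percentage point of the cut of the top bin. The limit of 200 genes kept 28.4%, 55.2%, 67.9% and 98.8% of the barcodes, so the bins compare unlike portions of the libraries. From the lowest to the highest bin Pdk4 went from 67.1 to 80.3 CPM for young sham, from 547 to 522 for young I/R, from 37.6 to 34.7 for aged sham and from 31.9 to 38.1 for aged I/R. With these 18 markers only the last of these differences lay outside counting error, at a log2 ratio of 0.25 (0.07 to 0.45). With Ttn left out of the markers the difference for aged I/R was 0.14 (-0.049 to 0.33) and the one outside counting error was that for young sham, from 57.9 to 78.5 CPM, at 0.44 (0.11 to 0.77). Within every bin the young I/R response of Pdk4 lay between 2.70 and 3.03, the aged response between -0.29 and 0.13, and the gene was lower in aged than in young I/R, by -4.10 to -3.78. The bins lay close together in the score. From lowest to highest bin the median marker share went from 7.94 to 14.4%, 7.77 to 11.8%, 8.13 to 12.4% and 9.77 to 14.0%. Counting error in the share at these depths was not separated from differences between barcodes. Similar values in all bins therefore do not show that Pdk4 is independent of cardiomyocyte content.

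**Figure D4:**
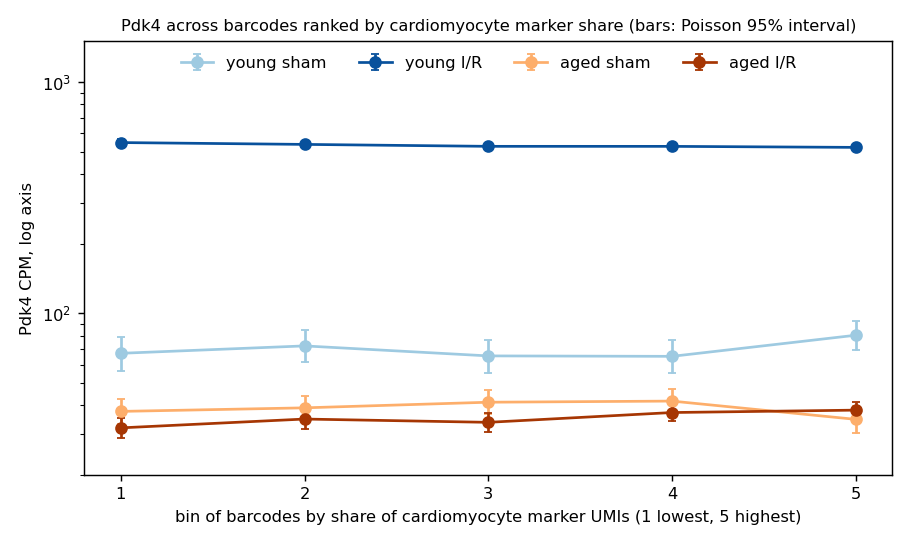
Pdk4 level (CPM, log axis) in 5 bins of barcodes ranked within each library by the share of UMIs from 18 cardiomyocyte markers, with exact Poisson 95% intervals. Each line is nearly level, and the young I/R line lies between 522 and 547 CPM, above the other 3 libraries in every bin. The bins differ little in median marker share (7.77 to 11.8% in young I/R), so a level line does not place Pdk4 by cell type.

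Barcodes with at least 3 UMIs of 15 endothelial markers had 84.5 (61.6 to 113), 532 (493 to 572), 39.1 (32.4 to 46.9) and 32.6 CPM (29.6 to 35.8) of Pdk4, beside 69.4, 532, 38.8 and 36.0 CPM in the other barcodes. With 15 fibroblast markers the values were 57.6, 532, 41.5 and 33.9 CPM beside 70.6, 532, 38.6 and 35.5 CPM, with no difference beyond counting error. Summed cardiomyocyte marker RNA differed between barcodes with and without a Pdk4 UMI by log2 ratios of 0.041 (0.030 to 0.052), 0.0029 (-0.0007 to 0.0065), -0.0052 (-0.016 to 0.0051) and 0.034 (0.028 to 0.040). Those of young sham and aged I/R, though small, lay outside counting error. With 15 macrophage markers only 45 to 1154 barcodes and 2 to 38 Pdk4 UMIs were left in a library, and Pdk4 in young I/R was at 314 CPM (136 to 619.5) beside 532 in the others. Barcodes with endothelial markers held 107753, 96717, 100621 and 120889 CPM of cardiomyocyte marker RNA beside 113006, 97885, 102570 and 119619 CPM in the others. With fibroblast markers these were 102996, 95170, 99031 and 119809 CPM beside 113162, 97904, 102792 and 119889 CPM. Barcodes grouped by these markers thus carried nearly as much cardiomyocyte RNA as the rest, and the comparison does not separate cell types.

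Marker lists also moved between libraries. The 18 cardiomyocyte markers summed to 109356, 97525, 102822 and 119852 CPM, an I/R response of -0.17 in young and 0.22 in aged mice. The response was above 0 for 10 of 18 of these markers in young and for 7 of 18 in aged mice, so neither sum had the direction of most of them. The 5 atrial marker genes, of which Bmp10 was at 0 in at least 1 library, summed to 136, 256, 127 and 94.5 CPM, the same order of libraries as Pdk4, with an I/R response above 0 for 4 of 5 in young and 0 of 5 in aged mice. In barcodes with a Pdk4 UMI the atrial sum differed from that in the others by log2 ratios of 0.17 (-0.14 to 0.46), -0.019 (-0.09 to 0.05), 0.10 (-0.20 to 0.38) and 0.11 (-0.10 to 0.32), all within counting error. Since barcodes were not shown to separate cell types, that comparison cannot decide an atrial part in Pdk4. The 5 neutrophil genes summed to 14.2, 95.5, 23.2 and 95.7 CPM and were high in both I/R libraries, unlike Pdk4. The part of these cell types in the levels of the members was not tested.

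Among 13201 genes with at least 200 UMIs over the 4 libraries, the profile nearest to that of Pdk4, by Euclidean distance of log2 CPM centred over the 4 libraries, was that of Angptl4, the secreted inhibitor of lipoprotein lipase, at a distance of 0.28. Angptl4 had 11.03, 61.4, 5.59 and 5.09 CPM. Its I/R response was 2.48 in young and -0.13 in aged mice, beside 2.80 and -0.15 for Pdk4. Among the next were Arc, Agt and Hspb1 at distances of 1.40, 1.43 and 1.52, with young I/R responses of 2.18, 3.29 and 2.20. Arc passed the minimum of 200 UMIs only through young I/R, with 17 UMIs for young sham, 29 for aged sham and 40 for aged I/R. The nearest other member was Mpc2, ranked 958th.

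Known regulators of Pdk4 and genes that share them formed a list of 20, all with enough UMIs. The list was chosen with earlier results of these data known, so its counts are not read as an excess over the background. In young I/R over young sham 4 of 20 were past the fold above (background 6.36%) and 1 below (23.5%), with a list median of -0.22. Those above were Angptl4, Fkbp5 and Tsc22d3 (both glucocorticoid-induced) and the acyl-CoA thioesterase Acot1, at log2 ratios of 2.48, 2.23, 0.75 and 0.63, and the 1 below was Ppara, the fatty acid receptor, at -1.30. In aged I/R over aged sham 4 were above (background 13.6%), Fkbp5 at 2.41, Ppara and Acot1 at 0.72 each and the coactivator Ppargc1a at 0.69, and 1 below (9.71%), Ucp3 at -1.43, with a list median of 0.0031. Fkbp5 had 13.9, 65.3, 10.6 and 56.3 CPM and was high in both I/R libraries, while Ppara had 42.8, 17.3, 19.4 and 32.0 CPM, the reverse of Pdk4 in its I/R direction at both ages.

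For the age difference 3 of the 20 were past the fold above 0 (background 28.2%), Ppara at 2.02, Ppargc1a at 1.41 and the estrogen-related receptor Esrra at 1.24. Below 0 were 4 (background 10.2%), Angptl4 at -2.61, the mitochondrial uncoupling protein Ucp3 at -1.20, Tsc22d3 at -1.06 and Acot2 at -0.83. Between sham libraries, aged over young, 0 were above (background 8.99%) and 3 below (13.8%), Ucp3 at -1.22, Ppara at -1.14 and Angptl4 at -0.98. Between I/R libraries 0 were above (19.5%) and 3 below (4.38%), Angptl4 at -3.59, Ucp3 at -2.42 and Acot2 at -0.63. The list medians of these 3 comparisons were 0.20, -0.35 and 0.12, beside 0.61, -0.14 and 0.47 for all genes. The receptor Nr3c1 and the forkhead factors Foxo1 and Foxo3, which bind the Pdk4 gene, were not past the fold in any comparison. Nr3c1 was at -0.81 in young I/R over young sham (104 to 59.5 CPM), or -0.30 relative to the median of all genes. Its ratio was 0.65 in aged over young I/R and 0.81 for the age difference, or 0.18 and 0.21 relative to that median.

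**Figure D5:**
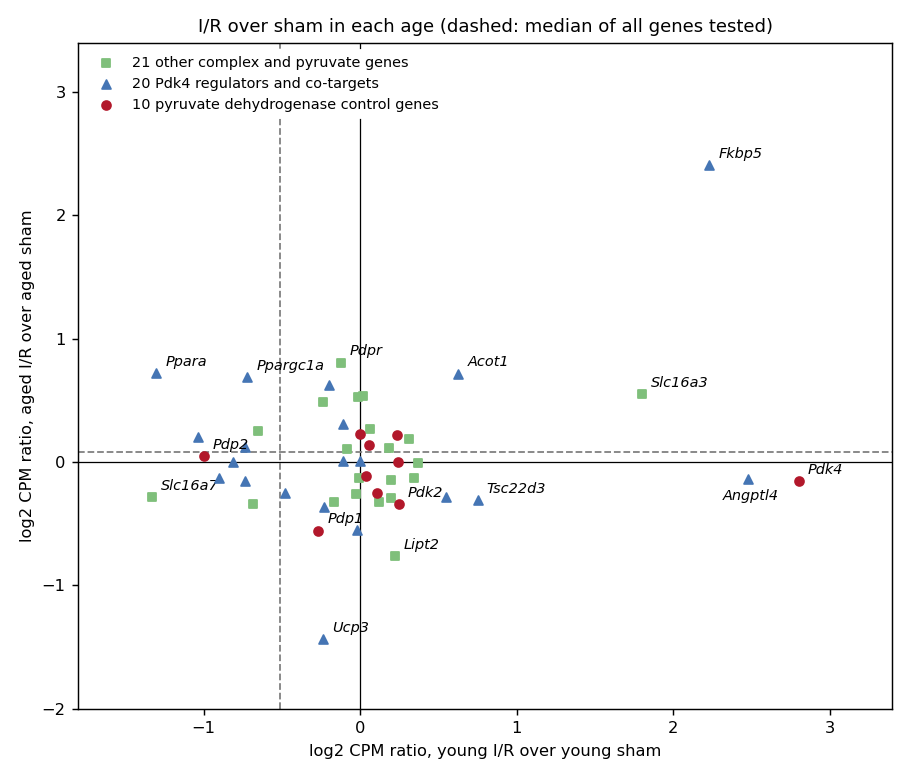
Log2 CPM ratio of I/R over sham in young (x axis) against aged mice (y axis) for the 10 members, 21 other genes of the complex and of pyruvate use, and 20 regulators and co-targets of Pdk4, with the medians of all genes dashed. Pdk4 and Angptl4 lie far right near the zero line, at 2.80 and 2.48 in young mice, while Fkbp5 is high on both axes.

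Other genes of the complex and of pyruvate use formed a list of 21, likewise chosen with earlier results known. In young I/R over young sham 1 was past the fold above (background 6.36%), the lactate exporter gene Slc16a3 (1.59 to 5.52 CPM, log2 ratio 1.80), and 1 below (23.5%), the pyruvate and lactate transporter gene Slc16a7 (6.97 to 2.77 CPM, -1.33). Their median was 0.019, with 18 of 21 higher than the median over all genes. The core subunits Dlat (192, 181, 162 and 174 CPM), Dld (181, 189, 176 and 212) and Pdhx (73.0, 72.6, 68.0 and 62.3) were not past the fold in any comparison. In aged I/R over aged sham 1 was above (background 13.6%), Pdpr, the regulatory subunit that restrains Pdp1 (23.3 to 40.8 CPM, 0.81), and 1 below (9.71%), the lipoylation gene Lipt2 (-0.77), with a median of -0.0098.

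For aged over young sham 2 of the 21 were above (background 8.99%), Slc16a3 at 0.65 and Slc16a7 at 0.59, and 0 below (13.8%). For aged over young I/R 1 was above (19.5%), Slc16a7 at 1.63, and 2 below (4.38%), Lipt2 at -0.72 and Slc16a3 at -0.60. For the age difference 0 were above (28.2%) and 2 below (10.2%), Slc16a3 at -1.25 and Lipt2 at -0.98. Lactate dehydrogenase Ldha, with 268, 339.9, 354 and 324 CPM, and citrate synthase Cs, with 295, 293, 237 and 340.3 CPM, were not past the fold in any comparison.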

How the data were processed

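Each deposited file holds UMI counts per gene and barcode as the authors made them with Cell Ranger 6.0.2 on mm10 (filtered matrices, unscaled whole numbers). Whether intronic reads and strand were used in counting is not given in the sources used here. Counts were summed over all barcodes of a library, divided by its total and given as CPM. Depth ranged from 25836175 to 66767829 UMIs, and intervals cover counting error only. Conditions were taken from the labels, with 1 library each, so no test was made. The 10 members and both gene lists were chosen with earlier results of these data known. Named genes are the members, the genes of both lists and the 5 genes nearest to Pdk4, of which 1 is not reported here. A minimum of 20 UMIs over 2 libraries (40 over 4 for the age difference) was set for genes tested, and a call needed 1.5-fold both as CPM ratio and after centring on the median of all genes. Alternatives were other scalings, other choices of barcodes, a fold of 2, at least 100 UMIs, reduction to 140 UMIs, kinases without Pdk4 and markers without Ttn. Of the calculations, only the intervals of CPM ratios and the fold calls were tested, on simulated Poisson counts. No doublets were removed and no cell types were called. The authors' cell names were not used, nor were the metabolite, protein and respiration data. Coordinates are from GENCODE M21 and windows at gene starts from RefSeq, both on GRCm38. Python 3.11.15, numpy 2.4.6, scipy 1.17.1, pandas 2.3.3 and matplotlib 3.10.9 were used.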

Additional observations from a re-analysis of the deposited data

Results flagged for a closer look

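For 3 genes the I/R libraries lay on opposite sides of their sham libraries in the 2 ages, each beyond counting error, and with 1 library per condition the difference was not tested. They are Pdk4 (2.80 in young and -0.15 in aged mice, difference -2.95), Pdk2 (0.25 and -0.34, difference -0.59) and Pdhb (0.11 and -0.25, difference -0.35), all as log2 CPM ratios. Relative to the median of all genes the differences were -3.56, -1.20 and -0.96. Of 16218 genes, 0.240%, 10.1% and 15.5% had a lower difference than Pdk4, Pdk2 and Pdhb. The share of all genes that lay on opposite sides in this way was not counted, so these 3 are not read as an excess. The choice also depends on scaling. Relative to that median the young and aged responses of Pdp1 (0.24 and -0.64), Mpc2 (0.55 and -0.20) and the sparse Pdk3 (0.76 and -0.08) had opposite signs too.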

How the results depend on the processing

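No paired analysis was possible because each condition has 1 library. For the same reason no library could be left out. Scaling decides small ratios: centring on the median of all genes turned Pdp1 in young I/R over young sham to 0.24, Pdk1, Pdp2, Pdha1 and Mpc1 in aged over young I/R to -0.21, -0.0071, -0.31 and -0.21, and the age difference of Mpc1 to -0.38, which a total without Gm42418, Malat1 and the mitochondrial genes put at -0.012. Pdk4 kept its direction in every comparison under the 7 settings, from 2.78 to 3.31 in young I/R over young sham and from -3.56 to -2.92 for the age difference. Using barcodes found in 1 library alone, a choice made after seeing the data, changed the direction of no member. Sparse counts limit Pdk3 most.

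Without Pdk4 the kinase ratio over phosphatases, E1 subunits, carriers and all 6 others was 0.82, 0.0022, 0.16 and 0.092 in young I/R over young sham, 0.31, 0.060, 0.31 and 0.17 in aged over young sham, where the ratios over E1 and over all 6 others changed sign, and -0.39, -0.15, -0.079 and -0.12 in aged over young I/R. With barcodes reduced to 140 UMIs the Pdk4 shares were 1.09%, 7.20%, 0.545% and 0.499%, and with markers without Ttn the log2 ratio of Pdk4 in the highest over the lowest bin of marker share was 0.44 for young sham, 0.0089 for young I/R, 0.046 for aged sham and 0.14 for aged I/R.

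Of the 21 complex and pyruvate genes, centring alone called 9 higher in young I/R over young sham, 9 lower in aged over young I/R and 12 lower for the age difference, and the total without Gm42418, Malat1 and the mitochondrial genes called 6 lower for the latter. The shares of all genes called under the changed settings are not given here, so these counts are not read as an excess. With centring alone, at least 25% of all genes were past 1.5-fold lower for the age difference, with a 25% point of -0.65. Their higher calls in aged over young sham became 0 with cardiomyocyte markers as the total and 1 with at least 200 genes or under 1000 UMIs per barcode, and the lower calls in aged over young I/R 1 with at least 200 genes. A fold of 2 left 0 lower in young I/R over young sham, 0 in either direction in aged I/R over aged sham, 0 higher in aged over young sham, 0 lower in aged over young I/R and 1 lower for the age difference.

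Of the 20 regulators and co-targets, centring alone called 2 lower in aged I/R over aged sham (2 also with the total without the abundant genes), 1 higher in aged over young sham (1 also with at least 200 genes), 8 lower in aged over young I/R and 7 lower for the age difference. In aged over young I/R the total without the abundant genes called 6 lower and cardiomyocyte markers as the total 5. In young I/R over young sham 2 were lower with at least 200 genes and 2 with at least 100 UMIs. A fold of 2 left 2 higher and 0 lower there, 1 higher in aged I/R over aged sham and 1 higher for the age difference. For this list, too, the shares of all genes under the changed settings are not given, and the counts are not read as an excess.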
